A study of Sorghum bicolor with 24 samples.

Results

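In the stem of Sorghum bicolor, 185 of the 34117 genes in the count table were high in phloem, vascular parenchyma and xylem sclerenchyma alike and low in both epidermis and pith parenchyma. They were chosen by their levels in the captured libraries, as CPM, which is a gene's count divided by the library's total and multiplied by 1000000. The lowest of the 3 vascular medians had to reach 20 CPM and be at least 4 times the higher of the epidermis and pith parenchyma medians. The highest vascular median had to be under 4 times the lowest. A limit of 300 genes was not reached. Because these values chose the genes, the height of the vascular levels over epidermis and pith parenchyma is given as a description, with no test.

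All libraries came from cv. Wray, a sweet sorghum, and no treatment or mutant was compared. Plants grew in a greenhouse with 14-h days, and 4 of them, vegetative at 74 days, gave the internode that had most recently finished elongating, at phytomer 8. Laser capture microdissection cut phloem, vascular parenchyma, xylem sclerenchyma, epidermis and pith parenchyma out of 20 µm cryosections, and whole stem from the same internodes was sequenced in bulk without capture. Each of these 6 groups had 4 replicates. The group named vascular parenchyma by the sample labels is listed as xylem parenchyma in their collection protocol, so which parenchyma of the bundle was taken is not settled by the labels.

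The vascular bundles of a grass stem are scattered through the pith. In a bundle, phloem carries sucrose and other solutes from leaves to sinks, and the parenchyma beside it and beside the xylem exchanges sugars, ions and water with both conduits. Xylem sclerenchyma is made of fibres whose thick lignified walls support the bundle. Pith parenchyma, the thin-walled ground tissue between bundles, is where the stems of sweet sorghum store sucrose, and the epidermis is the cuticle-covered outer layer. The count table gives gene identifiers without names, and none of them matched the gene table used for lookup. No product or role is therefore given for any gene, the genes are not sorted by function, and the captured types were not checked against marker genes.

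Total counts ran from 2769555 to 38880291 over the 20 captured libraries and from 16189208 to 29605470 over whole stem. Epidermis replicates 1 and 2, with 10439 and 10911 genes above 1 CPM, and phloem replicate 3, with 11021, had the fewest detected genes. Replicates 1 and 2 held fewer counts than replicates 3 and 4 in every group except pith parenchyma. The labels give no sequencing run.

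Together the 185 genes took a mean share of the counts more than 10 times larger in each vascular group than in epidermis or pith parenchyma. Their summed level averaged 37193 ± 3096 CPM in phloem, 53943 ± 2402 CPM in vascular parenchyma and 34168 ± 6324 CPM in xylem sclerenchyma (SD, n = 4 each). The sums in the other 2 captured types averaged 3299 ± 1899 CPM in epidermis and 2568 ± 621 CPM in pith parenchyma (SD, n = 4 each). As shares of all counts these were 3.72% for phloem, 5.39% for vascular parenchyma, 3.42% for xylem sclerenchyma, 0.330% for epidermis and 0.257% for pith parenchyma. The lowest vascular library, at 27572 CPM, lay above the highest epidermis library, at 5760 CPM. Vascular parenchyma was the most even of the vascular groups, with libraries from 51694 to 57267 CPM, all above the highest phloem library at 40157 CPM and the highest xylem sclerenchyma library at 39854 CPM. The 10 genes with the highest lowest vascular median held 30.4% of the phloem sum, 32.4% of the vascular parenchyma sum and 38.99% of the xylem sclerenchyma sum.

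**Figure D1:**
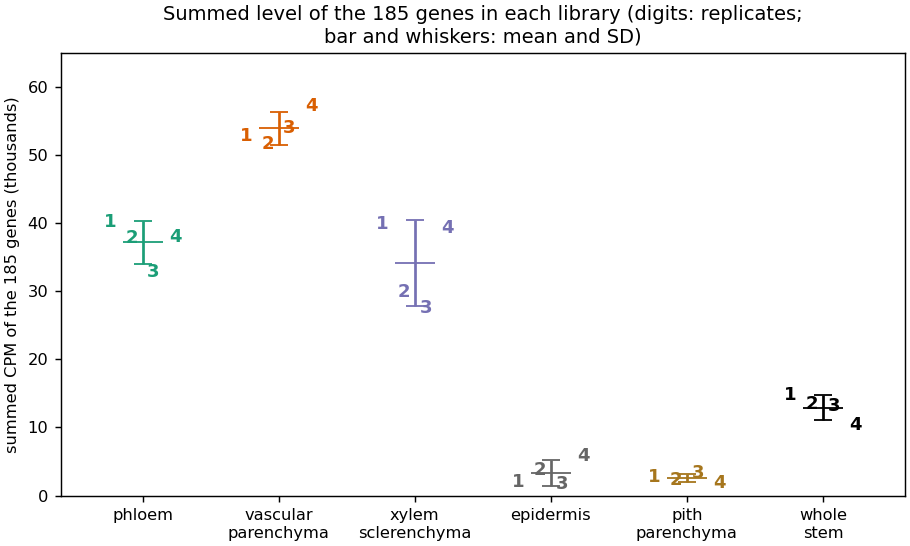
Summed CPM of the 185 genes in each library, by group, with digits for replicate numbers, bars for group means and whiskers for the SD over 4 libraries. The 12 vascular libraries sit between 27572 and 57267 CPM, the epidermis and pith parenchyma libraries at or below 5760 CPM, and whole stem between 10366 and 14813 CPM.

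Few of the genes were absent from a vascular library, and many were absent from single epidermis libraries. Of the 185, 171 were above 0 in all 12 vascular libraries and 94 were at 20 CPM or more in all 12. Phloem replicate 3 had 11 of them at 0, vascular parenchyma replicate 4 had 2, xylem sclerenchyma replicates 2 and 3 had 1 each and the other vascular libraries had 0. In epidermis, 106, 83, 51 and 10 of the genes were at 0 in replicates 1 to 4, against 25, 63, 42 and 41 in pith parenchyma. The epidermis library with the most genes at 0 had 10439 genes above 1 CPM in all and the library with the fewest at 0 had 16327. The part of detection in the epidermis values was not tested.

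Within the rule's limits the genes covered a wide range. The median over the 185 genes of the lowest vascular median was 60.3 CPM, and 63 genes reached 100 CPM. The ratio of the lowest vascular median to the higher of the epidermis and pith parenchyma medians had a median of 8.87, with genes whose 2 medians were 0 ranked highest. That ratio was 5 or more, or had both medians at 0, in 151 genes, 10 or more in 84 and 20 or more in 52. Both medians were 0 in 13 genes and under 1 CPM in 29, yet 0 of the 185 were at 0 in all 8 epidermis and pith parenchyma libraries. All 12 vascular libraries lay above all 8 epidermis and pith parenchyma libraries in 81 genes (43.8%), against 1.08% of the 19502 genes tested. The rule used this contrast, so nothing is read from that difference. Without phloem replicate 3 the 81 became 104, and without xylem sclerenchyma replicate 3 it became 97.

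**Figure D2:**
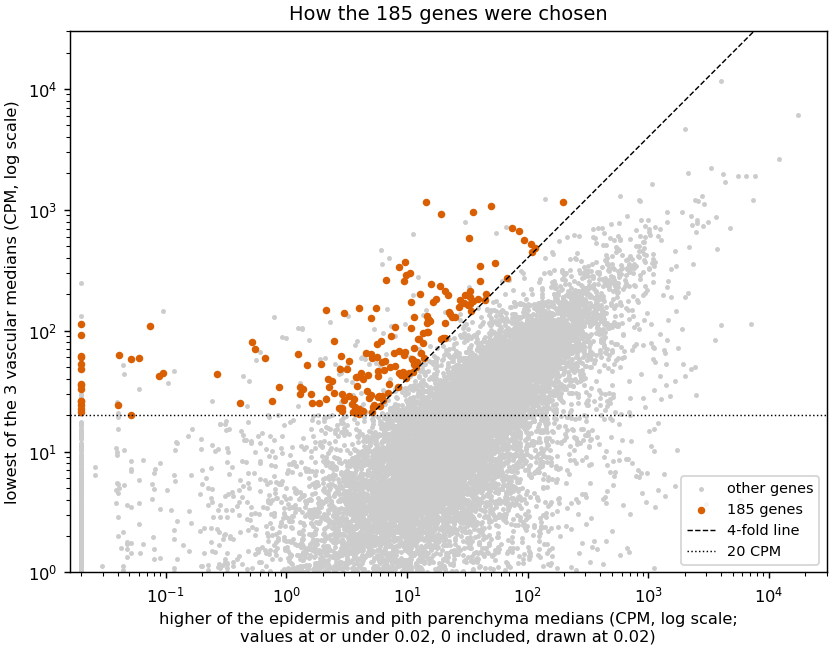
Lowest vascular median against the higher of the epidermis and pith parenchyma medians, in CPM on log axes, with the 185 genes and the other genes of the table marked apart. The 185 genes fill the corner that the limits of 20 CPM and 4-fold define, and 29 of them have both other medians under 1 CPM.

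The limits cut through a continuous spread of values. Just inside the limit of 20 CPM were Sobic.010G165300 at 20.1 CPM and Sobic.010G066200 at 20.4 CPM in their lowest vascular type, and just outside were Sobic.004G273800 at 19.97 CPM and Sobic.008G152100 at 19.8 CPM. At the 4-fold limit over the other types, Sobic.004G187800 at 4.003 and Sobic.010G183100 at 4.01 were inside, and Sobic.001G173600 at 3.997 and Sobic.010G050800 at 3.99 were outside. Between vascular types, Sobic.008G186400 at 3.997 and Sobic.002G032700 at 3.99 passed, while Sobic.005G061000 at 4.09 and Sobic.009G100200 at 4.12 did not. Genes on the 2 sides of each limit thus differed by a few percent at most.

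The 6 genes with the highest lowest vascular median are given first, with CPM in replicates 1 to 4 of each group. CPM is not divided by gene length, so levels are compared between groups of libraries and not between genes. Sobic.004G220300 had 899, 373, 2289.7 and 1426 CPM in phloem, 1089, 1871, 2477 and 831 CPM in vascular parenchyma and 5546, 1694, 7003 and 3646 CPM in xylem sclerenchyma. It had 46.2, 85.6, 308 and 1014 CPM in epidermis and 152, 84.3, 144 and 47.0 CPM in pith parenchyma. Epidermis replicate 4 therefore lay above phloem replicates 1 and 2 and vascular parenchyma replicate 4, and the vascular and epidermis libraries of this gene overlapped. Sobic.010G092600 had 3209, 2917, 998 and 3615 CPM in phloem, 4115, 4707, 1802 and 4001 CPM in vascular parenchyma and 1158, 1479, 178 and 1164 CPM in xylem sclerenchyma. Its epidermis libraries had 0.103, 69.8, 0.0772 and 15.6 CPM, and its pith parenchyma libraries 7.55, 0, 21.5 and 38.0 CPM. Replicate 3 was the lowest library of this gene in each vascular type, and all 12 vascular libraries were above the other 8.

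Sobic.009G016600 was the most even of the 6 in phloem. It had 1904, 2473, 1668 and 1895 CPM in phloem, 1340.2, 1254, 1900.3 and 1336 CPM in vascular parenchyma and 826, 1632, 943 and 1221 CPM in xylem sclerenchyma. The gene had 3.81, 29.7, 5.68 and 16.2 CPM in epidermis and 39.2, 5.90, 85.0 and 60.0 CPM in pith parenchyma. The vascular libraries stood clear of all 8 others, and vascular parenchyma overlapped both phloem and xylem sclerenchyma, while the lowest phloem library lay just above the highest xylem sclerenchyma library. Sobic.001G401900 had 1284, 802, 942 and 1076 CPM in phloem, 2724, 3608, 3770.1 and 3062 CPM in vascular parenchyma and 1449, 681, 563 and 1233 CPM in xylem sclerenchyma. In epidermis it had 34.8, 89.4, 2.57 and 35.1 CPM, and in pith parenchyma 32.9, 20.5, 153 and 37.8 CPM. All 4 vascular parenchyma libraries of this gene were above every other library.

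Sobic.002G086800 had 979.7, 999, 592 and 941 CPM in phloem, 2709.8, 1299, 1475 and 2682 CPM in vascular parenchyma and 1219.6, 639, 214 and 1310.4 CPM in xylem sclerenchyma. It had 0.103, 234, 2.78 and 8.50 CPM in epidermis and 15.8, 1.97, 74.7 and 22.8 CPM in pith parenchyma. Epidermis replicate 2, at 234 CPM, lay above xylem sclerenchyma replicate 3, at 214 CPM, so the groups overlapped by those libraries. Sobic.007G218800 had 645, 462, 1407 and 773 CPM in phloem, 796, 946, 1265 and 722 CPM in vascular parenchyma and 1668, 1048, 2071 and 839.6 CPM in xylem sclerenchyma. Its other captured libraries held 52.4, 166, 6.12 and 97.2 CPM in epidermis and 85.2, 0, 190.4 and 42.0 CPM in pith parenchyma. All 12 vascular libraries of this gene were above the other 8, and the 3 vascular types overlapped.

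**Figure D3:**
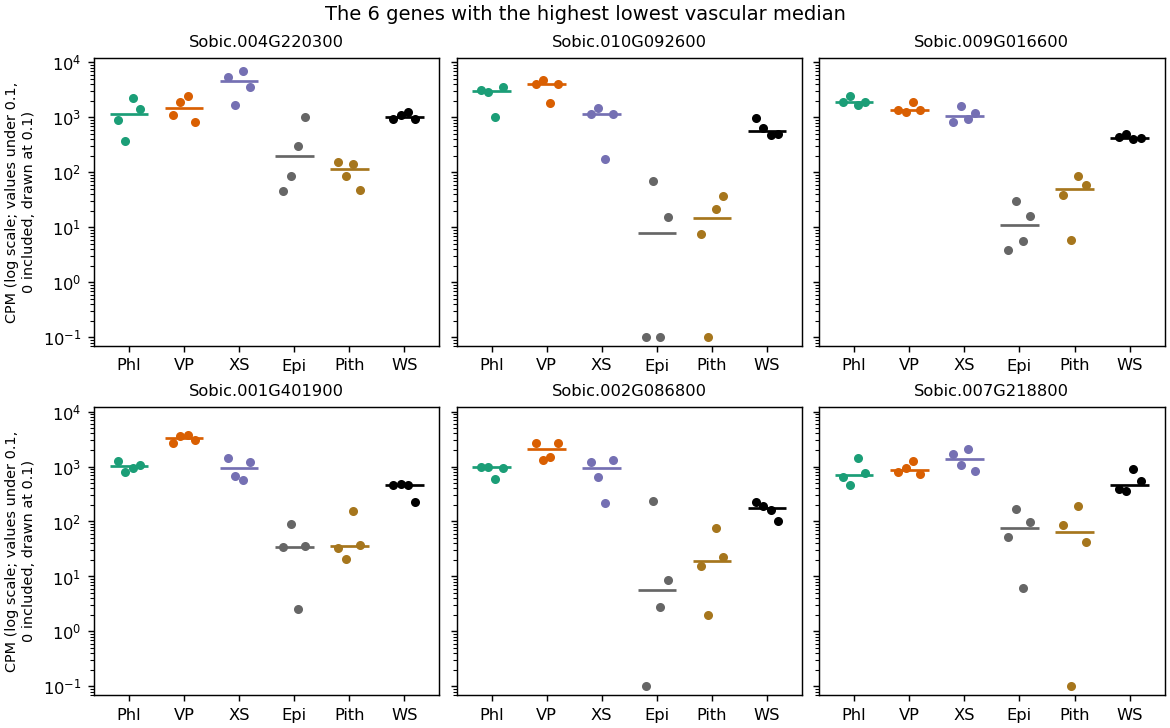
CPM on a log axis of the 6 genes with the highest lowest vascular median, by group (Phl phloem, VP vascular parenchyma, XS xylem sclerenchyma, Epi epidermis, Pith pith parenchyma, WS whole stem), with points for libraries and bars for group medians. Values under 0.1 CPM, 0 included, are drawn at 0.1. On the log axis, the epidermis points spread over a wider range than those of any vascular type in every panel.

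The 6 genes with the largest ratio over the other types had an epidermis and a pith parenchyma median of 0, and they were ranked by their lowest vascular median. Sobic.007G175200 had 179, 176, 12.4 and 63.9 CPM in phloem, 433, 188, 157 and 544 CPM in vascular parenchyma and 192, 70.3, 15.9 and 159 CPM in xylem sclerenchyma. It had 0, 0, 0 and 0.0599 CPM in epidermis and 0, 0, 17.1 and 0 CPM in pith parenchyma. Pith parenchyma replicate 3 lay above phloem replicate 3 and xylem sclerenchyma replicate 3. Sobic.004G073500 had 84.9, 188, 40.6 and 222 CPM in phloem, 188, 183, 279 and 243 CPM in vascular parenchyma and 97.0, 103, 10.6 and 88.5 CPM in xylem sclerenchyma. Its epidermis libraries held 0, 0, 0 and 8.29 CPM and its pith parenchyma libraries 0, 0, 0 and 0.0989 CPM. Xylem sclerenchyma replicate 3 was far below the other 3 of its group and still above all 8 epidermis and pith parenchyma libraries.

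Sobic.003G228900 had 103, 132, 40.6 and 45.0 CPM in phloem, 244, 247, 163 and 381 CPM in vascular parenchyma and 135, 64.2, 8.77 and 60.2 CPM in xylem sclerenchyma. It was above 0 in a single epidermis library, at 0.334 CPM, and in a single pith parenchyma library, at 0.241 CPM. Sobic.008G068200 had 169, 162, 242 and 106 CPM in phloem, 150.1, 134, 210.5 and 227 CPM in vascular parenchyma and 66.9, 111, 19.4 and 55.0 CPM in xylem sclerenchyma. This gene was at 0 in all 4 pith parenchyma libraries and above 0 in epidermis replicate 2 alone, at 0.0951 CPM. Both genes had their lowest vascular library in xylem sclerenchyma replicate 3.

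Sobic.002G379100 was nearly level across the vascular types. It had 68.6, 39.8, 29.3 and 71.3 CPM in phloem, 40.3, 78.4, 101 and 23.7 CPM in vascular parenchyma and 35.6, 87.7, 61.4 and 31.2 CPM in xylem sclerenchyma. It was otherwise above 0 in epidermis replicate 4, at 0.0299 CPM, and in pith parenchyma replicate 1, at 1.29 CPM. Sobic.009G217600 had 93.9, 47.3, 24.5 and 13.2 CPM in phloem, 121, 82.0, 44.5 and 110.1 CPM in vascular parenchyma and 105, 59.0, 20.2 and 104 CPM in xylem sclerenchyma. Replicate 4 held its highest value in epidermis, 6.53 CPM, and in pith parenchyma, 1.10 CPM, and the other libraries of both types were at 0. All 12 vascular libraries of these 2 genes lay above the other 8.

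Although the rule asked only for levels within 4-fold of each other, the genes did not divide evenly among the vascular types. Vascular parenchyma had the highest vascular median in 121 genes (65.4%), phloem in 44 (23.8%) and xylem sclerenchyma in 20 (10.8%). Over the 6024 genes whose lowest vascular median was at least 20 CPM, the corresponding shares were 32.4% for vascular parenchyma, 35.8% for phloem and 31.8% for xylem sclerenchyma. The lowest vascular median was in xylem sclerenchyma in 101 genes (54.6%), in phloem in 68 (36.8%) and in vascular parenchyma in 16 (8.65%). The ratio of the highest to the lowest vascular median had a median of 2.37 and a smallest value of 1.08. It was under 1.5 in 27 genes, under 2 in 66 and under 3 in 140. These shares are descriptions, since the same medians entered the rule.

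**Figure D4:**
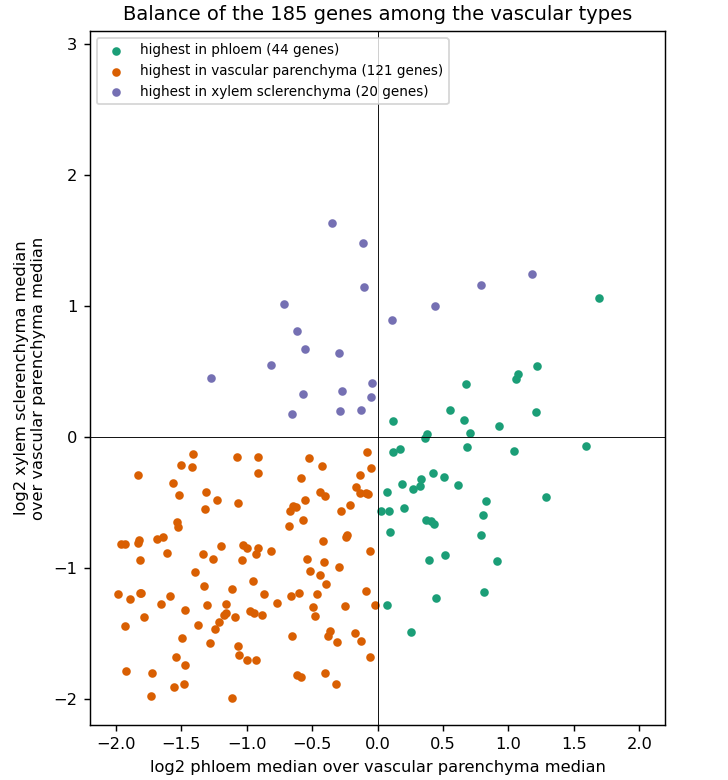
Each of the 185 genes by the log2 ratio of its phloem to its vascular parenchyma median (x) and of its xylem sclerenchyma to its vascular parenchyma median (y), coloured by the type with the highest median. The 121 genes highest in vascular parenchyma fill the lower left of the plot, with 44 highest in phloem on the right and 20 highest in xylem sclerenchyma above.

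The vascular types were compared gene by gene with edgeR's quasi-likelihood test over all 19502 genes that passed the filter on low counts, and all 185 passed it. Calls needed a Benjamini-Hochberg adjusted p under 0.05 and a change of 1 or more, up or down, on the log2 scale. Between phloem and vascular parenchyma 1 of the 185 was called, against 0.174% of all genes tested. Between phloem and xylem sclerenchyma 0 were called by edgeR, against 0.487%, with 7 at an unadjusted p under 0.05. Between vascular parenchyma and xylem sclerenchyma 0 were called by edgeR, against 0.0308%, with 9 at an unadjusted p under 0.05. The rule kept these contrasts small, so nothing is read from the counts. The choice of tool moved them, and the calls over all genes as well. Between phloem and vascular parenchyma, DESeq2 called 2 of the 185, against 690 of all 26261 genes fitted. Limma voom with sample quality weights called 26, with 24 lower in phloem, against 1304 of 19502. Between phloem and xylem sclerenchyma DESeq2 called 0, against 842, and limma voom 23, with 18 higher in phloem, against 1175. Between vascular parenchyma and xylem sclerenchyma DESeq2 called 2, against 758. Limma voom called 34 there, with 33 higher in vascular parenchyma, against 700. The edgeR counts became 2 between phloem and vascular parenchyma without epidermis replicate 3 and 1 between vascular parenchyma and xylem sclerenchyma without vascular parenchyma replicate 2.

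The gene called between phloem and vascular parenchyma was Sobic.003G361300, named here after its values were seen. It had 491, 401, 348 and 502 CPM in phloem and 1779, 1361, 1537 and 2089.6 CPM in vascular parenchyma, with no overlap between the 2 types. Its log2 fold change, phloem over vascular parenchyma, was -2.13 (SE 0.31), given as a description because the rule used both medians. The gene had 776, 631, 443 and 811 CPM in xylem sclerenchyma, below all vascular parenchyma libraries and overlapping phloem at replicate 3.

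A pair of vascular libraries stood apart from the others of their groups in many of the genes. Xylem sclerenchyma replicate 3 was the lowest of its 4 libraries in 106 genes (57.3%), and phloem replicate 3 in 95 (51.4%). The same shares over all genes were not counted, so these are not read as a trait of the 185. Phloem replicate 3 had 11021 genes above 1 CPM in all, against 15291 to 17125 in the other phloem libraries. The position of both replicate 3 libraries differed with the vascular type in which the genes were highest. The medians that set that type came from these same libraries, so this is a description, with no test. Xylem sclerenchyma replicate 3 was the lowest of 4 in 76 of the 121 genes highest in vascular parenchyma, in 26 of the 44 highest in phloem and in 4 of the 20 highest in xylem sclerenchyma. Over the 121 genes, the summed level was 21865, 15996, 9692 and 23164 CPM in xylem sclerenchyma replicates 1 to 4. Over the 20 genes it was 12779, 7202, 14323 and 9883 CPM in the same libraries. The library with the lowest sum of the first set thus had the highest sum of the second. That second sum leaned on Sobic.004G220300, with 5546, 1694, 7003 and 3646 CPM in xylem sclerenchyma replicates 1 to 4. Gene by gene, xylem sclerenchyma replicate 3 was the highest of its group in 4 of the 20 genes, and replicate 4 in 10. Phloem replicate 3 was in turn the highest phloem library in 12 of the 20 genes highest in xylem sclerenchyma, with a summed level of 7977 CPM, against 3677, 2457 and 4852 CPM in phloem replicates 1, 2 and 4. Without phloem replicate 3 the rule gave 190 genes, of which 175 were among the 185. Without xylem sclerenchyma replicate 3 it gave 210, of which 175 were among the 185.

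Epidermis and pith parenchyma were compared with each other as well. The rule did not use the difference between them but held both low, and the genes passed the filter on low counts through the vascular libraries. The epidermis median was above the pith parenchyma median in 73 of the 185 genes, below it in 99 and equal to it in 13. edgeR's quasi-likelihood test called 12 of the 185 (6.49%), of which 4 were higher in epidermis and 8 lower, against 2.55% of the 19502 genes tested. At an unadjusted p under 0.05 there were 38 of the genes (20.5%), against 14.9% of all genes tested. Since genes held low in both types are not like all genes tested, nothing is read from the 185 against these shares. The median log2 fold change, epidermis over pith parenchyma, was 0.07 over the 185 genes and -0.11 over all genes tested. In 9 of the 12 the epidermis and pith parenchyma libraries overlapped. The count was 7 without pith parenchyma replicate 2, against 464 of 20226 genes tested, and 6 without pith parenchyma replicate 4, against 343 of 20214. In both cases 0 of the called genes among the 185 were higher in epidermis. It was 25 within replicates 1 and 2, against 549 of 19634 genes tested. Within replicates 3 and 4 it was 2, against 11 of 20450. Each type has 2 libraries in these subsets.

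Because the identifiers carry no names, 2 of the genes are given for each direction. The rule held both types low in them, and they passed the filter on low counts through the vascular libraries. Their fold changes and adjusted p-values are therefore descriptions. Sobic.003G385100 had 0, 0, 12.3 and 17.1 CPM in epidermis and was at 0 in all 4 pith parenchyma libraries. Its epidermis mean was at least 26.5-fold higher, set against a floor of 3 counts per pith parenchyma library, which averaged 0.277 CPM. The libraries of the 2 types overlapped at 0, and the adjusted p was 0.0271 by edgeR's test. The epidermis signal came from replicates 3 and 4 alone, and the call was lost without epidermis replicate 3 or any of the 4 pith parenchyma replicates, at adjusted p-values of 0.0504 to 0.0762. It was also lost within replicates 1 and 2, where both types were at 0, and within replicates 3 and 4, at an adjusted p of 0.271 by edgeR's test. Sobic.004G167500, which had the smallest of the 4 rises and is given because its libraries did not overlap, a choice made after its values were seen, had 6.65, 23.6, 7.17 and 80.0 CPM in epidermis and 1.32, 1.02, 4.14 and 3.21 CPM in pith parenchyma, without overlap. Its log2 fold change was 3.69 (SE 0.93), with an adjusted p of 0.0364 by edgeR's test. This call was lost without phloem replicate 4, epidermis replicate 2 or 4, or any pith parenchyma replicate, at adjusted p-values of 0.0503 to 0.134. It was also lost with no filter on low counts, at an adjusted p of 0.0546, with limma voom, at 0.399, and within replicates 3 and 4, at 0.676.

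In the other direction, Sobic.001G009500 had 0, 0, 0 and 0.0299 CPM in epidermis, a single count in all, and 4.82, 0, 29.9 and 3.14 CPM in pith parenchyma. The ratio of pooled CPM, pith parenchyma over epidermis, was 719, with an exact 95% counting interval of 128 to 28487 that covers counting error only. Its adjusted p was 0.00104 by edgeR's test. Sobic.002G388400, named after its values were seen because its libraries did not overlap, had 0, 0, 0 and 5.99 CPM in epidermis and 97.8, 133, 136 and 97.6 CPM in pith parenchyma. Its log2 fold change was -6.10 (SE 1.39), with an adjusted p of 0.0224 by edgeR's test. Both genes were called in all 20 omissions of 1 library. The omissions of a vascular library among these left their epidermis and pith parenchyma counts unchanged. Within replicates 1 and 2 the call of Sobic.001G009500 was lost, at an adjusted p of 0.152 by edgeR's test. Within replicates 3 and 4 both calls were lost, at 0.0598 for Sobic.001G009500 and 0.558 for Sobic.002G388400. In the vascular types Sobic.002G388400 had 969, 716, 159 and 856 CPM in phloem, 821, 627, 539 and 544 CPM in vascular parenchyma and 507, 461, 135 and 506 CPM in xylem sclerenchyma. Pith parenchyma replicate 3, at 136 CPM, was thus level with xylem sclerenchyma replicate 3.

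The replicates of epidermis differed among themselves across the genes. Epidermis replicate 4 was the highest of 4 in 88 genes (47.6%). Epidermis replicate 1 was counted as the lowest in 119 (64.3%), but ties went to the lower replicate number. With 106, 83 and 51 of the genes at 0 in replicates 1 to 3, ties at 0 enter that count, and nothing is read from it. The same shares over all genes were not counted. Epidermis replicate 4 held 33400447 counts and replicate 1 held 9706378. Replicate 3, the deepest at 38880291 counts, had the lowest summed level, 1687 CPM, and was the highest of 4 in 15 genes. The part of depth in these differences was not tested. Without epidermis replicate 4 the rule gave 202 genes, which included 180 of the 185.

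Whole stem libraries were not used to choose the genes. All 185 were above 0 in all 4 whole stem libraries, and their summed level there averaged 12935 ± 1861 CPM (SD, n = 4), or 1.29% of the counts. The whole stem median was below the lowest vascular median in 178 of the 185 (96.2%), against 1422 of the 6024 genes with a lowest vascular median of at least 20 CPM (23.6%). It was above both the epidermis and the pith parenchyma median in all 185, and above the highest vascular median in 1. All 4 whole stem libraries lay between the higher of the epidermis and pith parenchyma medians and the lowest vascular median in 143 genes (77.3%). The captured medians in these counts also entered the rule, so they carry no test. In bulk tissue, fewer cells of a type and less RNA per cell cannot be told apart.

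The mean of the 3 vascular medians was 3.27 times the whole stem median in the median gene, with quartiles of 2.43 and 4.19 and a range of 0.717 to 11.0. Over the 6024 genes the same ratio had a median of 0.993. By the type with the highest median, the ratio had a median of 3.12 in the genes highest in phloem, 3.42 in those highest in vascular parenchyma and 2.41 in those highest in xylem sclerenchyma. The lowest vascular median alone was 2.01 times the whole stem median in the median gene, with quartiles of 1.56 and 2.49.

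**Figure D5:**
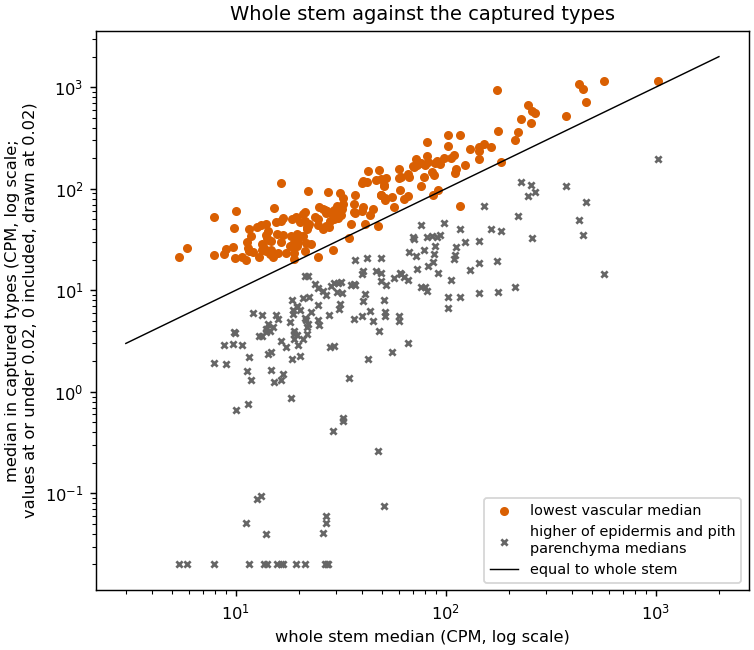
Lowest vascular median and higher of the epidermis and pith parenchyma medians against the whole stem median, in CPM on log axes, for the 185 genes. In 178 of them the whole stem median lies below the lowest vascular median, and in all 185 it lies above both the epidermis and the pith parenchyma median.

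The 3 genes with the highest whole stem median relative to the lowest vascular median were Sobic.003G003200, Sobic.003G352500 and Sobic.003G403500. Sobic.003G003200 had 85.9, 89.4, 108 and 109.9 CPM in phloem, 73.4, 103, 100 and 29.1 CPM in vascular parenchyma, 65.8, 68.9, 53.9 and 81.3 CPM in xylem sclerenchyma and 108, 133, 104 and 127 CPM in whole stem. It had 0, 11.5, 6.44 and 10.6 CPM in epidermis and 6.67, 207, 7.88 and 4.96 CPM in pith parenchyma. Pith parenchyma replicate 2 was above every other captured library of this gene, while the other 3 pith parenchyma libraries were below all vascular libraries. Sobic.003G352500 averaged 20.7 ± 10.4 CPM in xylem sclerenchyma, its lowest vascular type, and 25.05 ± 4.24 CPM in whole stem (SD, n = 4 each). Its whole stem libraries had 24.7, 30.7, 20.4 and 24.4 CPM. Sobic.003G403500 averaged 28.3 ± 18.6 CPM in phloem and 29.1 ± 13.4 CPM in whole stem (SD, n = 4 each). Its whole stem libraries had 29.3, 45.5, 28.6 and 12.8 CPM. In both genes the difference between the means was smaller than the SD of the vascular type.

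The 3 genes with the lowest were Sobic.007G175200, Sobic.003G347000 and Sobic.003G347200. In whole stem replicates 1 to 4, Sobic.007G175200 had 51.0, 19.5, 13.4 and 4.15 CPM, Sobic.003G347000 had 20.9, 7.58, 8.16 and 1.69 CPM, and Sobic.003G347200 had 18.9, 9.27, 10.8 and 3.23 CPM. Replicate 1 was the highest whole stem library and replicate 4 the lowest in each. Sobic.003G347000 had 207, 98.5, 8.17 and 35.1 CPM in phloem, 119, 109, 33.0 and 30.1 CPM in vascular parenchyma and 52.3, 53.3, 15.3 and 54.8 CPM in xylem sclerenchyma. Sobic.003G347200 had 229, 109, 36.6 and 81.2 CPM in phloem, 112, 78.7, 79.2 and 65.3 CPM in vascular parenchyma and 51.5, 87.7, 13.6 and 68.3 CPM in xylem sclerenchyma. Replicate 3 was the lowest library of both genes in phloem and in xylem sclerenchyma. Sobic.003G347000 and Sobic.003G347200 had counts of 574.12 and 633.882 in phloem replicate 1, and 286.507 and 282.493 in xylem sclerenchyma replicate 1. The fractions complement each other there, so the genes may share reads, which was not tested. Their separate levels are uncertain, and their likeness is not read as that of independent genes.

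The ends of that order of whole stem libraries were counted separately over the 185 genes. Whole stem replicate 4 was the lowest of the 4 in 127 of the 185 genes (68.6%), against 48.6% of the 6024. Replicate 1 was the highest in 92, and that share was not counted over the 6024. The summed levels in whole stem replicates 1 to 4 were 14813, 13394, 13168 and 10366 CPM. The SD of log2(CPM + 0.5) over the 4 whole stem libraries had a median of 0.42 over the 185 genes, with quartiles of 0.25 and 0.67, and 0.21 over the 6024. The 2 sets were not matched for their level in whole stem, and the part of counting error in that difference was not tested.

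By the chromosome number that each identifier carries, the genes lay on all 10 chromosomes. Chromosome 3 had 33 of them and chromosome 1 had 31. Per 100 genes with a lowest vascular median of at least 20 CPM, the number ran from 1.70 on chromosome 5 to 4.31 on chromosome 10. In identifier order, 5 pairs of the genes were neighbours in the table, which took in 10 genes. Of the 368 genes next to any of the 185, those 10 made up 2.72%, against 0.542% of the table and 3.07% of the 6024 genes with a lowest vascular median of at least 20 CPM. Of the same 368, 91 (24.7%) had a lowest vascular median of at least 20 CPM, against 17.7% of the table. The neighbours included Sobic.002G379100, described above, and Sobic.002G379200, with lowest vascular medians of 48.5 CPM and 47.9 CPM. Their counts were 145.442 and 195.558 in phloem replicate 2, and 804.065 and 385.935 in phloem replicate 3. The fractions complement each other there. They also did in Sobic.003G076500 and Sobic.003G076600, at 1010.17 and 1446.83 in phloem replicate 1, and in Sobic.009G181900 and Sobic.009G182000, at 303.313 and 2483.69 there. Sobic.010G062000 and Sobic.010G062100 had 1529.66 and 1512.34 in vascular parenchyma replicate 4. Counts of Sobic.001G482700, beside Sobic.001G482600, were whole. The pairs with such fractions may share reads, which was not tested, so the neighbours are not read as independent genes. How shared reads were divided is not given in the sources used here. The separate levels of such a pair, those given above for Sobic.002G379100 included, are therefore uncertain.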

How the data were processed

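The values are the authors' deposited estimated counts (expected counts) per gene, 34117 genes in 24 libraries, not normalized. The submitters' processing notes name FastQC, Salmon and alevin. Tool versions and the build were not given in these sources. Of the values, 10.5% were not whole and were rounded for the count models. CPM was computed from column totals.

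The genes and the rules for naming them were chosen with earlier results of these data known. Named were the 6 with the highest lowest vascular median, the 6 with the largest ratio over the other types, the gene with the largest change in each direction between epidermis and pith parenchyma with another whose libraries did not overlap, the 3 at each end of the whole stem ratio and those beside each limit. Lists by product and marker checks could not be built.

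Tests used edgeR 4.0.16 in R 4.3.3 (filterByExpr, TMM, robust quasi-likelihood F test, Benjamini-Hochberg adjustment over 19502 genes) on the 20 captured libraries, each type with 4 replicates from 4 plants. DESeq2 1.42.0 and limma 3.58.1 (voom with sample quality weights), RLE scaling, no filter, a replicate block, subsets of replicates and omissions of 1 library were the alternatives. The test was checked on simulated counts. No 2 libraries of a group agreed within sampling noise. Floors of 3 counts and counting intervals cover counting error only, since the labels name no molecular identifiers.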

Additional observations from a re-analysis of the deposited data

Results flagged for a closer look

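In groups of 4 libraries, 34 values lay far from the other 3 by Dixon's criterion at the 95% level, over 168 groups examined. In 15 of them the other 3 libraries were at 0, where any value above 0 meets the criterion, so the usual chance rate of about 1 in 20 groups does not apply to these. They are given as values, and no explanation was tested.

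Phloem replicate 3 had 11 of the 185 genes at 0 and 137 at 20 CPM or more, against 0 at 0 and 175 or 176 at 20 CPM or more in the other phloem libraries. Vascular parenchyma replicate 4 had 2 genes at 0. Among vascular libraries, phloem replicate 3 was low in Sobic.002G086800 at 592 CPM and high in Sobic.008G059100 at 265 CPM and Sobic.007G109900 at 184 CPM. Vascular parenchyma replicate 3 was high in Sobic.009G016600 at 1900.3 CPM. Xylem sclerenchyma replicate 3 was low in Sobic.004G073500 at 10.6 CPM and Sobic.003G347000 at 15.3 CPM.

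The values in epidermis and pith parenchyma were all the highest of their 4 libraries, and in several genes the other 3 were at 0. In epidermis they were replicate 4 of Sobic.007G175200 at 0.0599 CPM, Sobic.004G073500 at 8.29 CPM, Sobic.002G379100 at 0.0299 CPM, Sobic.009G217600 at 6.53 CPM, Sobic.003G403500 at 0.0599 CPM and Sobic.001G009500 at 0.0299 CPM. Replicate 3 of Sobic.003G228900 at 0.334 CPM, replicate 2 of Sobic.008G068200 at 0.0951 CPM and of Sobic.002G086800 at 234 CPM, and replicate 1 of Sobic.003G347000 at 3.44 CPM and of Sobic.003G347200 at 8.55 CPM completed the epidermis values. In pith parenchyma, replicate 3 was high in Sobic.001G401900 at 153 CPM, Sobic.007G175200 at 17.1 CPM, Sobic.003G347000 at 11.7 CPM and Sobic.001G009500 at 29.9 CPM. Pith parenchyma replicate 4 was high in Sobic.004G073500 at 0.0989 CPM, Sobic.009G217600 at 1.10 CPM and Sobic.004G165600 at 8.82 CPM. Replicate 1 was high in Sobic.003G228900 at 0.241 CPM and Sobic.002G379100 at 1.29 CPM, and replicate 2 in Sobic.003G003200 at 207 CPM and Sobic.003G403500 at 13.5 CPM.

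In whole stem, replicate 4 was low in Sobic.001G401900 at 226 CPM and Sobic.007G109900 at 8.24 CPM, and replicate 1 was high in Sobic.004G165600 at 31.5 CPM.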

How the results depend on the processing

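The rule gave 116 genes within replicates 3 and 4 only, of which 84 were among the 185, and 131 to 241 under the other limits, scalings and averages tried, and 221 within replicates 1 and 2 only. Omissions of 1 library gave 164 to 210 genes. Of the 185, 12 were called between epidermis and pith parenchyma. DESeq2, which gave no adjusted p for 4 of the 185, called 26, against 1851 of all 26261 genes fitted. Limma voom with sample quality weights called 7, against 1668 of 19502. Replicates 1 and 2 only gave 25, against 549 of 19634, and replicates 3 and 4 only 2, against 11 of 20450. Omissions of 1 library gave 6 to 15, against 343 to 619 over all genes. Nothing is read from the 185 against these counts. With the replicate block the count was 5, against 410 of 19502. The calls of Sobic.003G385100 and Sobic.004G167500 were lost with it, at adjusted p-values of 0.0746 and 0.0807 by edgeR's test. The labels give 4 plants but do not say that a replicate number marks a plant. Of 40 same-number library pairs from different types, 3 had deviations correlated above 0.1, all between vascular types. Same-number pairs ran from -0.0294 to 0.0927 between phloem and vascular parenchyma and from 0.0199 to 0.136 between phloem and xylem sclerenchyma. Between vascular parenchyma and xylem sclerenchyma they ran from 0.0550 to 0.122. Different-number pairs of these types ran from -0.133 to 0.0836. Whether the numbers pair the libraries was therefore not settled, and the block is given as an alternative only. The block left the edgeR counts of 1, 0 and 0 in the 3 vascular pairs unchanged.

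Between phloem and vascular parenchyma, DESeq2 called 2, against 690 over all genes, and limma voom 26, against 1304. Replicates 1 and 2 only or replicates 3 and 4 only gave 0, with 0 over all genes too. Omissions gave 1 to 2, against 4 to 52 over all genes. Between phloem and xylem sclerenchyma limma voom called 23, against 1175. Between vascular parenchyma and xylem sclerenchyma DESeq2 called 2, against 758, and limma voom 34, against 700. Omissions gave 0 to 1 there, against 0 to 69. The cause of these differences was not tested, except that the subsets of replicates leave 2 libraries a type. The count of 178 genes below their lowest vascular median in whole stem was 181 with TMM-scaled totals and 178 to 180 over omissions. The count of 81 without overlap was 84 with TMM-scaled totals and 81 to 104 over omissions, alternatives chosen after seeing the data. Of 324 alternative fits of the 12 called genes, 229 kept the call, 95 did not and 0 turned the direction. Genes at 0 in every library of 1 type, such as Sobic.003G385100 in pith parenchyma, could not turn. Omissions of each of the 12 vascular libraries are among these fits and left every epidermis and pith parenchyma count unchanged. The figures are therefore not read as a measure of stability.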
